A study of Mus musculus with 8 samples.

Results

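The 39 genes described here carry glucose through the heart. They cover glucose uptake, glycolysis, the oxidation of pyruvate in the mitochondrion, glycogen, and the insulin pathway that controls them. They were chosen by gene symbol, with earlier results of these data known. Of the 39, 34 were measured by at least 1 probe set with a single symbol, out of 22180 genes measured in the same way on the array. Aldoa and Gsk3a were represented only by a probe set shared between several symbols, and no probe set was named here for Gpi1, Pfkfb1 or Eno1, so these 5 have no value.

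The hearts came from mice heterozygous for Pcyt2 (Pcyt2+/-), the gene of the enzyme that makes CDP-ethanolamine for phosphatidylethanolamine synthesis. There were 4 females and 4 males, all aged 8 months, and the tissue was labelled as myocardium. The labels call the arrays biological replicates, so the p-values measure the spread between these animals. Both sexes carry the same genotype, and no wild-type heart is part of the comparison, so the question is how the sexes differ within Pcyt2+/- hearts. Nothing below bears on the effect of the Pcyt2 allele itself.

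Heart muscle burns mainly fatty acids and keeps glucose as a second fuel that insulin can call on. Insulin binds its receptor, the receptor phosphorylates the Irs adaptors, and these recruit PI3-kinase, whose lipid product activates Akt. Akt then phosphorylates Tbc1d4, which releases Slc2a4 vesicles to the cell surface, Gsk3, which stops holding back glycogen synthase, and the Foxo transcription factors, which leave the nucleus.

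Every value below is a log2 value relative to the median of that probe set over the 8 arrays. No absolute level is known, so levels of different genes cannot be compared, and an absent marker cannot be seen. Differences are females minus males, so a positive one means a higher female mean. In whole tissue, fewer cells of a type and less RNA per cell cannot be told apart. On the arrays labelled female Xist was above all males, with a difference of the means of 4.84. The Y-linked genes Eif2s3y, Uty and Kdm5d were higher on every array labelled male. Pcyt2 itself ran from -0.057 to 0.24 in females and from -0.13 to 0.32 in males, a difference of -0.054 (limma, adjusted p = 0.972).

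At an adjusted p under 0.05 (limma, Benjamini-Hochberg over all genes) 0 of the 34 genes were called. In all, 7 of 22180 genes (0.0316%) were called, among them Xist and the Y-linked Eif2s3y, Uty and Kdm5d. In the fit of autosomal genes only, 0 of 21201 were called. The adjusted p of the 34 lay between 0.621 and 0.993. At an unadjusted limma p under 0.05 there were 8 of the 34 (23.5%), against 6.96% of all genes. Pik3r1, Akt1, Irs1 and Tbc1d4 had the higher mean in females, and Pkm, Pgam2, Tpi1 and Gsk3b had the higher mean in males. Over all genes such a p was reached by 3.63% with the higher mean in females and by 3.32% with the higher mean in males. The 8 do not stand after adjustment over the whole array. Because the list was chosen with earlier results of these data known, its share is a description and no independent evidence. Only 5 of the 34 reached such a p in a fit without female 2, and likewise without female 4, male 1, male 3 or male 4, where 6.06% to 7.84% of all genes did.

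Every difference was small. The 34 ran from -0.18 to 0.20, at most 1.15-fold, and their median was 0.0080, beside -0.00058 over all genes. Of the 34, 17 had the higher mean in females and 17 in males. The 95% intervals of 27 lay wholly within a 1.2-fold difference in either direction, and no interval went beyond -0.34 or 0.49. The median SD over the 8 arrays was 0.0855, against 0.0754 over all genes.

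**Figure D1:**
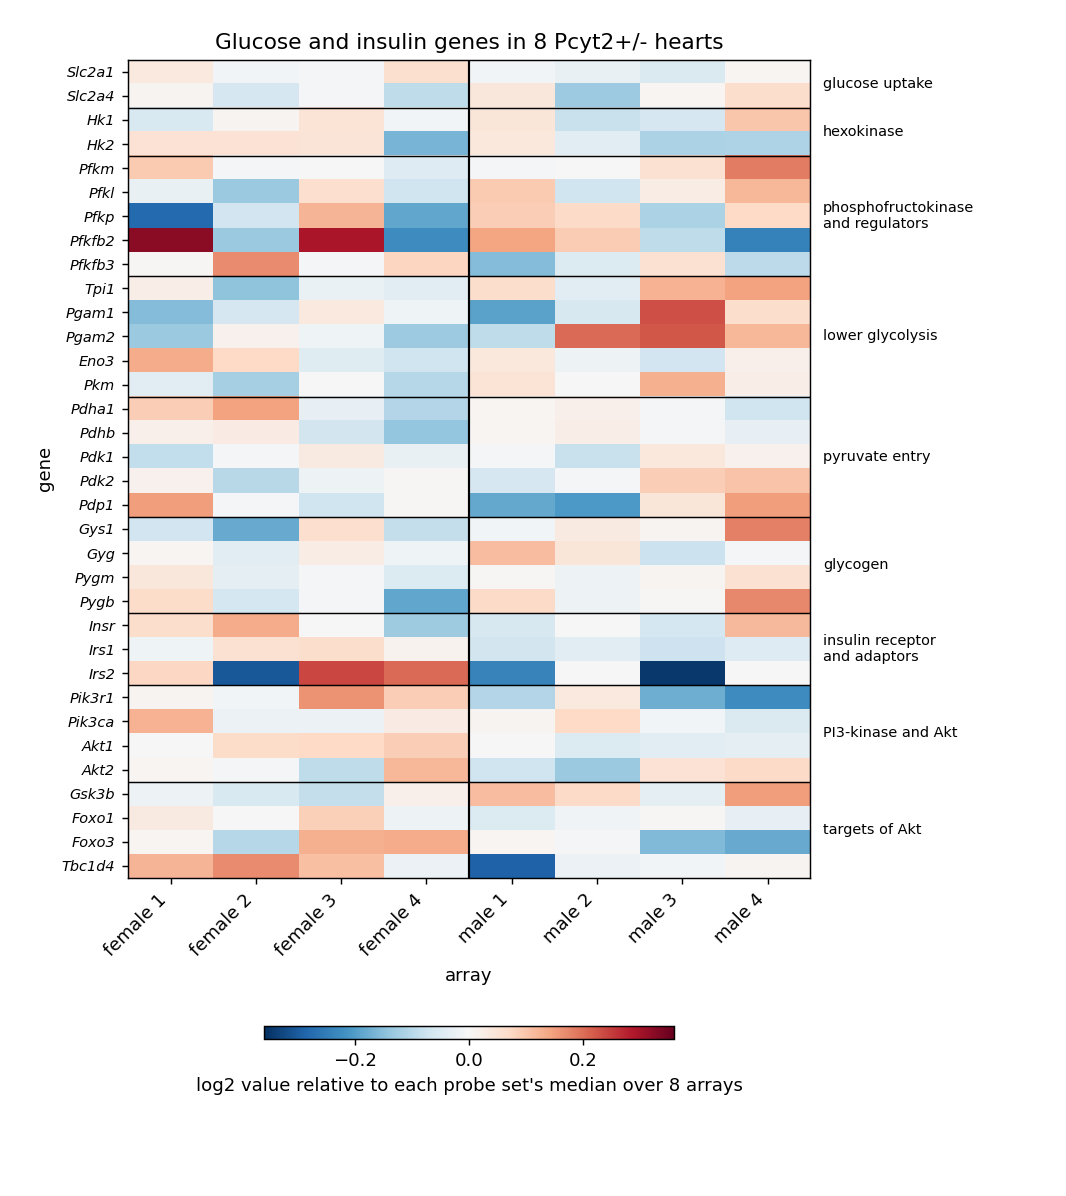
Values of the 34 genes (rows, grouped by role) on the 4 female and 4 male arrays (columns), coloured by log2 value, where 0 is the median of the gene's probe set. The strongest colours are in the rows of Irs2 and Pfkfb2, whose arrays of 1 sex differ among themselves by more than the means of the sexes do.

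The 2 arms of the list leaned in opposite directions without any member passing the test. Of the 11 insulin pathway genes 10 had the higher mean in females, with a median difference of 0.086. Of the 23 genes of glucose use and glycogen 7 had the higher mean in females and 16 in males, with a median of -0.032. Over all genes 49.6% had the higher mean in females. With the mean of 6 adipocyte markers as a covariate the counts became 9 of 11 and 13 of 23, so the lean of the enzyme arm did not hold in that fit. Without the 3 arrays highest in the fast skeletal myosin gene Myh4 they were 8 of 11 and 7 of 23. Without the 2 arrays highest in the liver marker Alb they were 8 of 11 and 6 of 23. All genes were read on the same 8 hearts, so they are not independent of one another.

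Female and male values did not overlap for 3 of the 34 (8.82%), against 3.74% of all genes. Irs1 and Akt1 lay higher on every female array than on any male array, and Pkm lay higher on every male array. Over all genes 1.89% had every female above every male, and 1.85% every male above every female. The separations were narrow, with a gap of 0.024 for Irs1, 0.004 for Akt1 and 0.000737 for Pkm. The upstream sequences of these 3 genes are shown because no other member separated the sexes array by array. Each is the 250 bases before the first transcription start that RefSeq lists for the gene, in the assembly GRCm38.p6, written 5′ to 3′ on the gene's own strand. They lie at chr1:82291440-82291689 on the minus strand for Irs1, chr12:112674885-112675134 on the minus strand for Akt1 and chr9:59656326-59656575 on the plus strand for Pkm. Capitals mark any of 4 motifs searched on both strands: the E-box CACGTG, the Foxo motif GTAAACA, the GC box GGGCGG and the nuclear receptor half-site AGGTCA.
Irs1: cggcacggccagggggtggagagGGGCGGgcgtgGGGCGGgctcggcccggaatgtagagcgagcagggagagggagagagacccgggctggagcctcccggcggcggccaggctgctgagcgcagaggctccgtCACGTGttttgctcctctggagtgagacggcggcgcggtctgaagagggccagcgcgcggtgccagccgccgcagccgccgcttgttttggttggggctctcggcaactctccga
Akt1: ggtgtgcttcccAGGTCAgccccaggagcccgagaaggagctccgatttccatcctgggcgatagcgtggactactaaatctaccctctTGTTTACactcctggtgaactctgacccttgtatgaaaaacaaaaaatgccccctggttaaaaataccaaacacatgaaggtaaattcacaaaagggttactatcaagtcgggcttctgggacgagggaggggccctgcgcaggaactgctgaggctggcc
Pkm: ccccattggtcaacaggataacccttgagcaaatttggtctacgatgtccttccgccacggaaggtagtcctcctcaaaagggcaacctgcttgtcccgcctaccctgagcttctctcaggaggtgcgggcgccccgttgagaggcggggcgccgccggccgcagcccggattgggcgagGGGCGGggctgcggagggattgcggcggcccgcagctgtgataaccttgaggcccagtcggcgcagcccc

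The Irs1 window held 1 E-box and 2 GC boxes. The Akt1 window held 1 half-site and 1 Foxo motif, which reads TGTTTAC on the gene's strand. The Pkm window held 1 GC box. Of the 32851 promoter windows of this length that RefSeq lists, 6.02% held the E-box, 3.17% the Foxo motif, 32.7% the GC box and 14.0% the half-site. Of the 31 measured members with a listed window, 5 held the E-box, 1 the Foxo motif, 19 the GC box and 2 the half-site at their first start. The percentages are over all listed windows, not first starts alone. Akt1 and Pkm also have a second listed start. For Akt1 its window held 4 GC boxes, without the Foxo motif or the half-site. For Pkm it held 1 half-site and no GC box. These are matches of letters and show no binding.

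**Figure D2:**
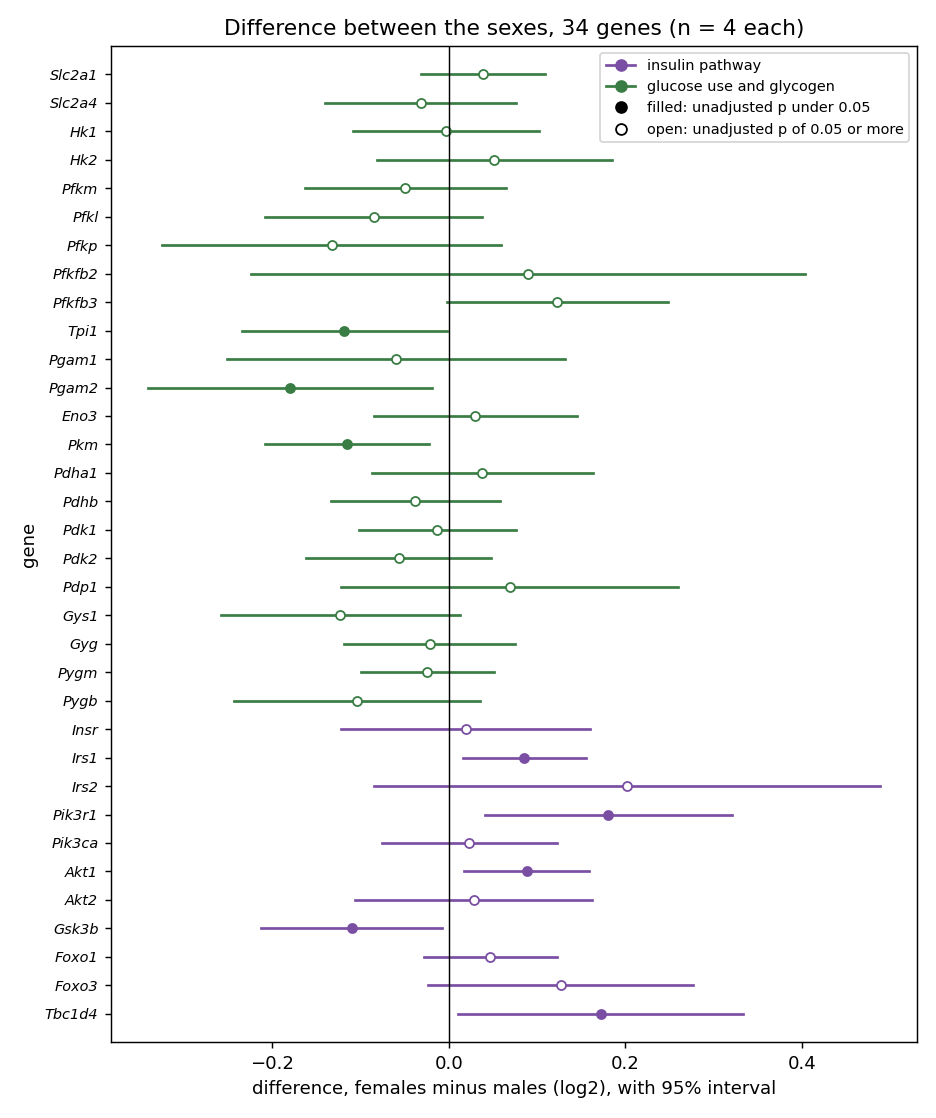
Difference between the sexes (females minus males, log2) for each of the 34 genes, with its 95% interval from limma. Filled points have an unadjusted p under 0.05, and they lie between -0.18 and 0.18. Most intervals cross 0.

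The insulin receptor and its adaptors open the pathway. Insr, the receptor, was at 0.062, 0.13, 0.0021 and -0.13 in females 1 to 4, against -0.058, -0.0021, -0.064 and 0.12 in males 1 to 4. Its difference was 0.019 ± 0.062 (SE), with a 95% interval from -0.12 to 0.16, and the sexes overlapped widely.

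Irs1, an adaptor that the receptor uses in muscle, was at -0.014, 0.055, 0.064 and 0.012 in the females, against -0.065, -0.038, -0.074 and -0.047 in the males. All 4 males lay below the lowest female, and the males were close together. The means were 0.029 ± 0.037 in females and -0.056 ± 0.017 in males (SD, n = 4 each). The difference was 0.086 ± 0.031 (SE), a 1.06-fold higher female mean, with a limma p of 0.0214 and an adjusted p of 0.638. This rests on the average of 2 probe sets that ran against each other over the arrays (r = -0.613 as a description, n = 8). Alone they differed between the sexes by 0.076 ± 0.066 and 0.095 ± 0.079 (SE), and each by itself overlapped between the sexes.

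Irs2, the other main adaptor and a Foxo target in liver, varied most of the 34 genes, with an SD of 0.227 over the arrays. It was at 0.076, -0.30, 0.24 and 0.21 in the females, against -0.24, -0.0024, -0.35 and 0.0024 in the males. In all, 3 of 4 females lay above every male, while female 2 was the second lowest array of all. The difference of 0.20 ± 0.13 (SE) was the greatest of the list, 1.15-fold, with an interval from -0.085 to 0.49 (limma p of 0.146, adjusted p = 0.812). Over the 19 alternative fits it ran from 0.13 to 0.37, the last in the fit without the 2 arrays with the highest Alb.

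PI3-kinase and Akt carry the signal on. Pik3r1, the p85-alpha regulatory subunit of PI3-kinase, was at 0.011, -0.011, 0.16 and 0.088 in the females, against -0.10, 0.035, -0.18 and -0.23 in the males. Male 2 was the only male within the female range. The means were 0.063 ± 0.079 in females and -0.12 ± 0.11 in males (SD, n = 4 each). The difference of 0.18 ± 0.062 (SE), 1.13-fold, had the smallest p of the 34 (limma p of 0.017, adjusted p = 0.621). An unadjusted p under 0.05 was kept in 18 of 19 alternative fits, and the difference ran from 0.14 to 0.28. These fits reuse the same arrays, so they are no independent evidence. Pik3ca, a catalytic subunit, differed by 0.023 ± 0.044 (SE).

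Akt1, one of the kinases the lipid product activates, was at 0.002, 0.066, 0.072 and 0.088 in the females, against -0.002, -0.05, -0.037 and -0.036 in the males. The arrays separated by sex, with female 1 and male 1 next to each other at the boundary. Its difference was 0.088 ± 0.031 (SE), 1.06-fold (limma p of 0.0203, adjusted p = 0.633). Akt2, the isoform tied to insulin-stimulated glucose uptake, was at 0.0079, -0.0079, -0.091 and 0.12 in the females, against -0.071, -0.14, 0.053 and 0.069 in the males. Its values overlapped, with a difference of 0.028 ± 0.059 (SE) and an interval from -0.11 to 0.16. Akt1 over Akt2 within each array also overlapped between the sexes.

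Of the 4 measured targets of Akt 3 had the higher mean in females. Tbc1d4, which keeps Slc2a4 inside the cell until Akt phosphorylates it, was at 0.12, 0.17, 0.11 and -0.022 in the females, against -0.29, -0.021, -0.0092 and 0.0092 in the males. Male 1 lay far below the other males, and the remaining arrays were closer. The difference was 0.17 ± 0.072 (SE), 1.13-fold (limma p of 0.0396, adjusted p = 0.689). It was 0.085 once female 1, male 1 and male 2 were left out, the 3 arrays highest in Myh4, a fast skeletal myosin gene.

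Gsk3b, the kinase that holds back glycogen synthase, had the higher mean in males. It was at -0.019, -0.056, -0.086 and 0.019 in the females, against 0.11, 0.07, -0.032 and 0.15 in the males. In all, 3 of the 4 males lay above every female, and male 3 lay within the female range. The difference was -0.11 ± 0.045 (SE), with a limma p of 0.0374 and an adjusted p of 0.682. It was the only insulin pathway gene of the list with the higher mean in males.

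The Foxo factors, which Akt keeps out of the nucleus, both had a higher female mean. Foxo1 was at 0.033, 0.00049, 0.087 and -0.019 in the females, against -0.05, -0.013, 0.0045 and -0.029 in the males, a difference of 0.047 ± 0.033 (SE). Its 2 probe sets gave -0.0013 and 0.095 (r = -0.446 over the arrays, as a description). Foxo3 differed by 0.13 ± 0.067 (SE), with 3 of 4 females above every male and a limma p of 0.0888 (adjusted p = 0.751).

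**Figure D3:**
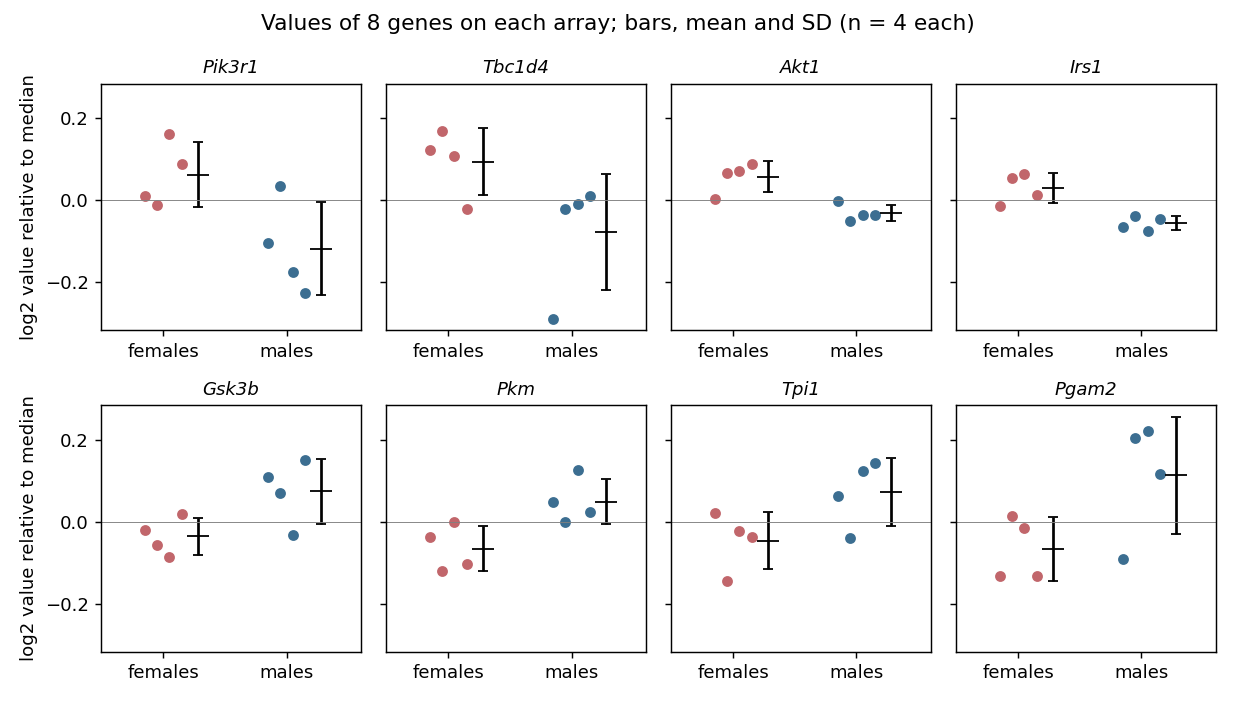
Log2 values of the 8 genes with an unadjusted p under 0.05 on each of the 4 female and 4 male arrays (points), with mean and SD beside them. Akt1, Irs1 and Pkm do not overlap between the sexes, and in Tbc1d4 male 1 lies at -0.29, apart from the other males.

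In the enzyme arm, glucose enters through Slc2a1 and Slc2a4. Slc2a4, the insulin-responsive transporter GLUT4, was at 0.01, -0.062, -0.0064 and -0.09 in the females, against 0.04, -0.13, 0.0064 and 0.064 in the males. No female lay outside the male range, and the difference was -0.032 ± 0.048 (SE), with an interval from -0.14 to 0.077. Slc2a1, the basal transporter GLUT1, was at 0.036, -0.011, -0.0082 and 0.058 in the females, against -0.011, -0.027, -0.051 and 0.007 in the males. Its difference of 0.039 ± 0.031 (SE) averages 2 probe sets that disagreed. On the first all females lay above all males, and it gave 0.13 ± 0.047 (SE), limma p of 0.0222 and adjusted p of 0.649, and the second gave -0.052 ± 0.033 (SE), with r = -0.742 between them over the arrays as a description.

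Hexokinase traps glucose in the cell as glucose 6-phosphate. Hk1 was at -0.055, 0.0092, 0.049 and -0.0092 in the females, against 0.045, -0.079, -0.059 and 0.10 in the males, a difference of -0.0034 ± 0.047 (SE). Hk2, the isoform that insulin induces in muscle, was at 0.052, 0.053, 0.045 and -0.17 in the females, against 0.037, -0.037, -0.11 and -0.11 in the males. In all, 3 females lay above every male and female 4 lay below every male. The difference was 0.052 ± 0.059 (SE), with an interval from -0.081 to 0.18. Female 4 also had the highest adipocyte marker mean of the 8 arrays. With that mean as a covariate the Hk2 difference was 0.17 (limma p of 0.00742, adjusted p = 0.483).

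Phosphofructokinase is the committed step of glycolysis, with the muscle subunit Pfkm, the liver subunit Pfkl and the platelet subunit Pfkp. Pfkm was at 0.094, -0.0081, -0.00018 and -0.046 in the females, against -0.0032, 0.00018, 0.056 and 0.18 in the males, a difference of -0.049 ± 0.05 (SE) with an interval from -0.16 to 0.064. Pfkp was at -0.28, -0.07, 0.12 and -0.19 in the females, against 0.09, 0.07, -0.11 and 0.071 in the males. It overlapped widely because female 3 was the highest array and male 3 the lowest male, and its difference was -0.13 ± 0.085 (SE). Pfkl differed by -0.085 ± 0.055 (SE), so all 3 subunits had the higher mean in males and none passed the test.

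The Pfkfb enzymes make and remove fructose 2,6-bisphosphate, the activator of phosphofructokinase. Pfkfb2, the heart isoform and an Akt target, was at 0.32, -0.13, 0.30 and -0.23 in the females, against 0.14, 0.092, -0.092 and -0.24 in the males. The females themselves spanned more than the males, and the SD over all arrays, 0.225, was the second greatest of the list. Its difference was 0.09 ± 0.14 (SE), and 0.0037 without female 1. With the adipocyte covariate it was 0.37 (limma p of 0.0144, adjusted p = 0.524). Pfkfb3, the inducible isoform, differed by 0.12 ± 0.055 (SE), with a limma p of 0.054 and an adjusted p of 0.718.

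Lower glycolysis held 3 of the 4 genes with an unadjusted p and a higher male mean. Pgam2, the muscle phosphoglycerate mutase, was at -0.13, 0.016, -0.016 and -0.13 in the females, against -0.09, 0.20, 0.22 and 0.12 in the males. In all, 3 males lay above every female, and male 1 lay among the females. Its means were -0.066 ± 0.077 in females and 0.11 ± 0.14 in males (SD, n = 4 each). The difference was -0.18 ± 0.071 (SE), 1.13-fold higher in males (limma p of 0.0323, adjusted p = 0.669). It was -0.20 with the fast skeletal muscle markers as a covariate.

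Pkm, the pyruvate kinase of muscle, was at -0.038, -0.12, -0.00037 and -0.10 in the females, against 0.048, 0.00037, 0.13 and 0.025 in the males. The difference was -0.12 ± 0.041 (SE), 1.08-fold higher in males (limma p of 0.0206, adjusted p = 0.633). Female 3 and male 2 almost met at the middle. Tpi1, triosephosphate isomerase, was at 0.023, -0.14, -0.023 and -0.037 in the females, against 0.063, -0.039, 0.12 and 0.14 in the males. Its difference was -0.12 ± 0.051 (SE), with an interval that ends at -0.0026 (limma p of 0.046, adjusted p = 0.706). Pgam1, the widely expressed mutase, differed by -0.06 ± 0.085 (SE), and Eno3, the muscle enolase, by 0.03 ± 0.051 (SE).

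Pyruvate is oxidized inside the mitochondrion by the pyruvate dehydrogenase complex, which Pdk kinases switch off and Pdp1 switches on. Pdk2 was at 0.015, -0.10, -0.019 and 0.0048 in the females, against -0.06, -0.0048, 0.088 and 0.10 in the males. The difference was -0.057 ± 0.046 (SE), with an interval from -0.16 to 0.048. Pdp1 was at 0.15, -0.0029, -0.071 and 0.0029 in the females, against -0.18, -0.21, 0.043 and 0.15 in the males. It was low in males 1 and 2 and high in male 4, and its difference was 0.069 ± 0.085 (SE). Pdk1 differed by -0.013 ± 0.039, the X-linked E1 alpha subunit gene Pdha1 by 0.038 ± 0.056 and the E1 beta subunit gene Pdhb by -0.038 ± 0.042 (SE each).

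The 4 measured glycogen genes of this list had the higher mean in males, and none passed the test. Of 11 further glycogen genes, from the second list below, 5 had the higher mean in females and 6 in males. Their median difference was -0.0034. Gys1, the muscle glycogen synthase, was at -0.07, -0.18, 0.061 and -0.087 in the females, against -0.01, 0.033, 0.01 and 0.18 in the males. In all, 3 of 4 females lay below every male, and female 3 lay above 3 of them. The difference was -0.12 ± 0.06 (SE), with a limma p of 0.0696 and an adjusted p of 0.728. Gyg, the glycogenin that primes the chain, differed by -0.022 ± 0.043 (SE).

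The phosphorylases release glucose 1-phosphate from glycogen. Pygm, the muscle form, was at 0.042, -0.036, -0.0032 and -0.049 in the females, against 0.0032, -0.018, 0.0089 and 0.056 in the males. Pygb, the brain form that the heart also uses, was at 0.067, -0.063, -0.0051 and -0.19 in the females, against 0.068, -0.019, 0.0051 and 0.17 in the males. Both were lowest in female 4 and second lowest in female 2, and both were highest in male 4. Their differences were -0.025 ± 0.033 and -0.10 ± 0.062 (SE each), and 0.0064 and 0.0057 with the adipocyte covariate.

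Isoform partners were set side by side over the 8 arrays, in 11 pairs. Pygm and Pygb followed each other, with Pearson's r = 0.926 (exact permutation p = 0.00057, adjusted over the 11 pairs 0.00627) and Spearman's rho = 0.929 (exact permutation p = 0.00223, adjusted 0.0246; n = 8, two-sided). Without the 2 arrays farthest from the median of Pygm r was 0.852. It was the only one of the 11 pairs to pass after adjustment when all 8 arrays were permuted. The next was Pgam2 with Pgam1, at r = 0.668 (exact permutation p = 0.0664, adjusted 0.365, n = 8). Because both genes had the higher mean in males, the pairs were also correlated after each gene was centred on its mean in each sex, a step chosen after seeing the data. For Pygm and Pygb r was then 0.927 (exact permutation within each sex, p = 0.00521, n = 8, two-sided), and after adjustment over the 11 pairs, 0.0573, it did not pass. The log2 ratio of the partners within an array overlapped between the sexes in all 11 pairs.

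The remaining steps of these pathways were covered by a second list. Of its 64 further genes, chosen for their roles, 57 were measured. At an adjusted p under 0.05 (limma) 0 were called, and 5 of 57 (8.77%) had an unadjusted p under 0.05, beside 6.96% of all genes. Of these 2 had the higher mean in females and 3 in males. In the fit without female 1 there were 8, beside 6.86% of all genes. There were 10 once the 3 arrays highest in Myh4 were left out, beside 7.29% of all genes. Female and male values did not overlap for 3 of the 57 (5.26%), against 3.74% of all genes.

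The 6 further genes with the smallest p were Ppp1r3a, Mtor, Pik3r2, Pdpr, Sh2b2 and Tsc2. Ppp1r3a, the muscle subunit that brings protein phosphatase 1 to glycogen, was at 0.064, 0.13, 0.13 and 0.033 in the females, against -0.16, -0.033, -0.15 and -0.37 in the males. All females lay above all males, and the difference was 0.27 ± 0.066 (SE), 1.21-fold (limma p of 0.00266, adjusted p = 0.481). Mtor, the nutrient-sensing kinase, was at -0.15, -0.021, -0.063 and -0.16 in the females, against 0.069, 0.021, 0.029 and 0.14 in the males. Here all males lay above all females, and the difference was -0.16 ± 0.044 (SE; limma p of 0.00464, adjusted p = 0.499).

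Ppp1r3a and Mtor each kept an unadjusted p under 0.05 in all 19 alternative fits. They were picked by their small p and the fits reuse the same arrays, so this is no independent evidence. Pik3r2, the p85-beta subunit of PI3-kinase, was also above all females in all males, with a difference of -0.099 ± 0.037 (SE; limma p of 0.0263, adjusted p = 0.654), the opposite sign to Pik3r1. Pdpr, a regulator of the pyruvate dehydrogenase phosphatase, differed by -0.15 ± 0.059, the adaptor Sh2b2 by 0.13 ± 0.055 and the mTOR inhibitor Tsc2 by -0.093 ± 0.042 (SE each), with adjusted p of 0.662, 0.698 and 0.718 (limma).

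Markers of cell types were also read on the same arrays. The mean of the 6 measured adipocyte markers of 8 listed was 0.17 ± 0.23 in females and -0.11 ± 0.12 in males (SD, n = 4 each), from -0.051 to 0.48 in females and from -0.23 to 0.054 in males, and 6 of 6 had the higher mean in females. With that mean as a covariate 2 of the 34 genes, Hk2 and Pfkfb2, had an unadjusted p under 0.05, in place of the 8, and 8 of the 57 further genes did, beside 8.12% of all genes in that fit. The differences of the 8 kept their sign and were between 0.742 and 1.2 times those without the covariate, while their SEs were 1.34 to 1.40 times as large. Pik3r1, for example, differed by 0.19 ± 0.086, Tpi1 by -0.12 ± 0.072 and Akt1 by 0.065 ± 0.042 (SE each) with the covariate. The mean of the 11 fast skeletal muscle markers was 0.01 ± 0.23 in females and 0.25 ± 0.51 in males, with the highest values in male 2, male 1 and female 1, and 1 of 11 had the higher mean in females. The mean of the 4 atrial markers was low in female 1, at -0.79, and in male 3, at -0.78, and spread widely within both sexes. All 5 liver markers had the higher mean in females, and their mean was highest in female 2, at 0.79, and female 1, at 0.45. Alb alone was at 2.69 and 1.76 there, while Apoa1 and Serpina1a were at -0.026 and 0.0048 in female 1. Of 8 cardiomyocyte markers 4 had the higher mean in females, and the difference of their mean was -0.0036. The mean difference was -0.082 for endothelial markers (1 of 5 with the higher mean in females), -0.15 for smooth muscle (0 of 4) and 0.0051 for macrophage (3 of 5). For fibroblast markers it was -0.019 although 4 of 5 had the higher mean in females, since Dpep1 alone differed by -0.34. No marker was called, and the part of these cell types in the differences was not tested beyond the covariate fits and the fits without arrays.

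**Figure D4:**
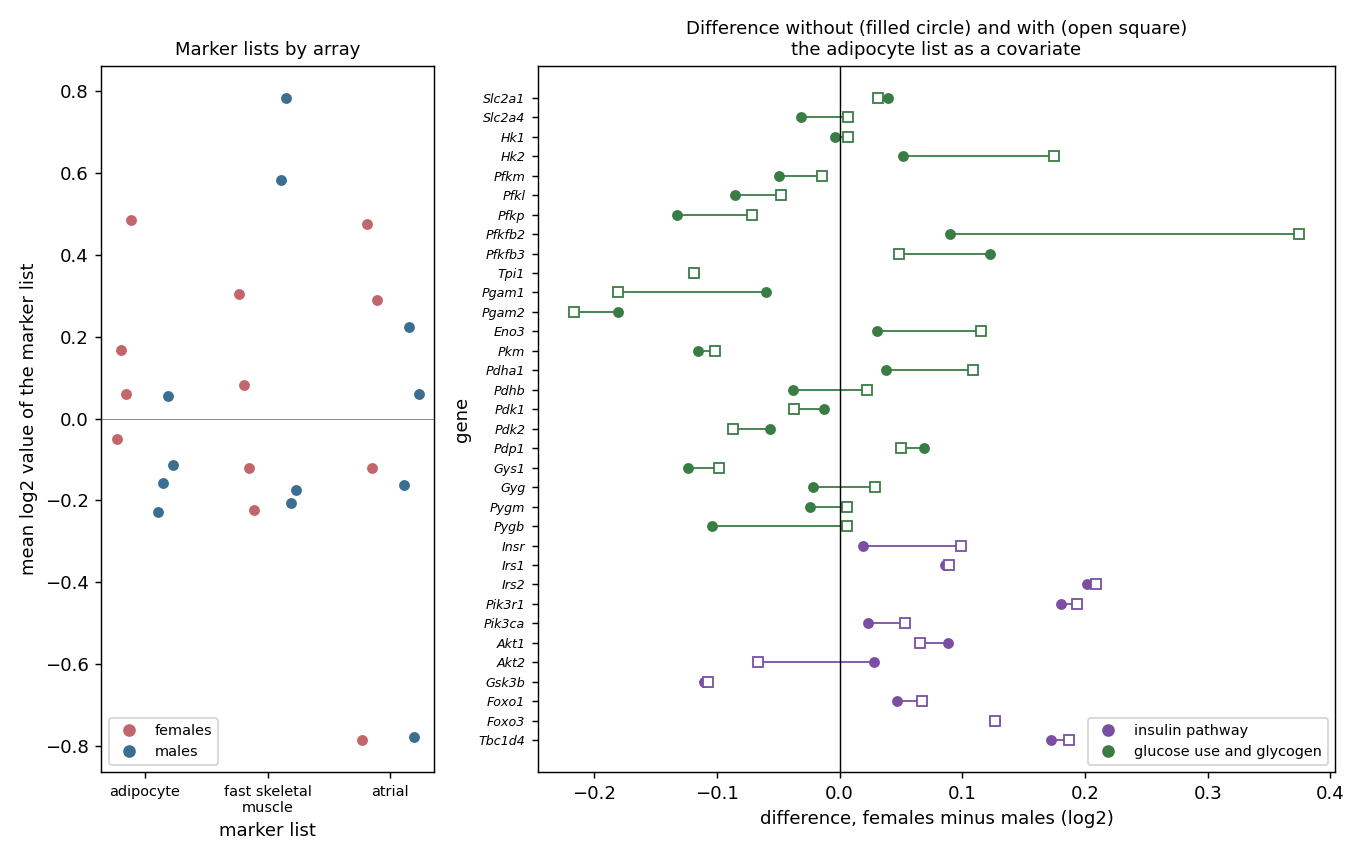
Left, mean log2 value of 3 marker lists on each array, females left of males. Right, difference between the sexes (females minus males, log2) of the 34 genes without (circle) and with (square) the adipocyte marker mean as a covariate. Hk2 and Pfkfb2 moved most towards females, to 0.17 and 0.37.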

How the data were processed

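Gene expression was measured on short-oligonucleotide arrays, 1 per heart, from 100 ng of total RNA, per the labels' protocols. The authors' deposited values are log2 values of 34351 probe sets, each with a median of 0 over the 8 arrays (tolerance 1e-06). Neither the log base, taken as 2, nor the normalization is stated in those sources. Array medians lay between -0.002105 and 0.002304. The number of arrays limits the precision: the median SE of a difference was 0.0497.

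The platform annotation gave the names: 23521 probe sets had 1 symbol, 1814 several (left out) and 9016 were unnamed here. The mean over a gene's probe sets was used, for 22180 genes. Females were set against males with limma 3.58.1 (R 4.3.3; lmFit, eBayes, sex as the only term), adjusted by Benjamini-Hochberg over all genes, and tested on simulated data. Members and gene lists were chosen with earlier results of these data known.

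Values per array are given for members with an unadjusted p under 0.05, the 6 with the greatest SD, those whose sexes did not overlap and 15 gatekeepers of the pathway, and the 6 further genes with the smallest p are named. Pairs of partners were tested by exact permutation. Alternatives were other normalizations, limma settings, a replicate block, marker covariates, autosomal genes and arrays left out.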

Additional observations from a re-analysis of the deposited data

Results flagged for a closer look

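Within a sex, 80 groups of 4 arrays were searched for an array far from the other 3 by Dixon's test, which chance meets in about 1 of 20 groups, and 4 were found. Hk2 was at -0.17 in female 4, against 0.045 to 0.053 in the other females. Pfkp was at -0.11 in male 3, against 0.070 to 0.090 in the other males. Tbc1d4 was at -0.29 in male 1, against -0.021 to 0.0092 in the other males. Tsc2, one of the further pathway genes, was at 0.12 in male 4, against -0.0013 to 0.015 in the other males. Female 4 and male 1 also had the highest and lowest adipocyte marker mean, 0.48 and -0.23.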

How the results depend on the processing

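No alternative brought a gene of the list past the threshold, and the lowest adjusted p of a member in any of them was 0.404 (limma). The median difference over the members kept within -0.024 and 0.026. The count of members with an unadjusted p under 0.05, 8 as reported, was 2 with the adipocyte markers as a covariate, where the differences of the 8 were 0.742 to 1.2 times as large and their SEs 1.34 to 1.40 times, and 5 to 7 with 1 array left out. For the further pathway genes the count of 5 was 8 with the adipocyte covariate, 10 without the 3 arrays with the highest Myh4, and 4 to 8 with 1 array left out. With the replicate block these counts were 6 and 6, beside 7.64% of all genes, with 0 members called. Over all genes the share was 6.96% as reported and 8.12% with the adipocyte covariate. It was 7.29% without the 3 arrays with the highest Myh4 and 6.06% to 7.84% with 1 array left out. Same-numbered females and males correlated at 0.137, 0.0972, 0.00618 and 0.0906 in their deviations from the group means. Pairs with different numbers ran from -0.13 to 0.0955. Values this few and small cannot tell whether the numbers pair the samples. Of 759 single-gene values recomputed, 753 moved by less than 1 SD and 6 by 1 SD or more, and 0 passed the threshold. The sign held in all 19 alternatives for 19 members and changed in at least 1 for 15. The correlation of Pygm with Pygb was 0.927 with each gene centred on its sex mean, with an adjusted exact permutation p of 0.0573. The causes of the other moves were not tested. The centred values hold no signal over background, so no filter on dim probe sets was run.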
